A study of Caenorhabditis elegans with 6 samples.

Results

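The cytosolic ribosomal proteins of Caenorhabditis elegans were described here by every probe set of the array whose annotated gene symbols all begin with rpl- or rps- and a digit. The rule took 112 of 22625 probe sets, which name 77 genes. Of these, 67 probe sets (47 genes) belong to the large subunit and 45 (30 genes) to the small subunit. RNA came from whole N2 (Bristol) worms, labelled L4 larvae, and was hybridised to 1-colour Affymetrix arrays. The GYY4137 group held 3 arrays of worms exposed to 100 uM GYY4137, a donor that releases H2S slowly, for 48 h in liquid and then 12 h on plates. The control group held 3 arrays. All the arrays carry the same growth text, so a mock exposure of the controls is not described in the sources used here. Nothing in the labels states that replicates were separate cultures, so every p-value rests on the spread among these 6 arrays, and that spread may be technical.

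A cytosolic ribosome joins a small subunit, which reads the mRNA, to a large subunit, which forms the peptide bond and passes the new chain out through a tunnel. Most ribosomal proteins are normally present once per ribosome, and animals make most of them in balanced amounts. Their mRNAs are among the most abundant of a growing worm, and synthesis of ribosomes is a main output of the TOR growth pathway. In the gene names used here, rpl marks a protein of the large subunit and rps a protein of the small subunit. Roles given below are known from yeast or mammalian ribosomes unless a species is named.

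A value is the authors' log2 GCRMA signal of a probe set, and a difference is the GYY4137 mean minus the control mean on that scale. Levels of different probe sets are not set against each other, since each has its own probes. Of the 112 probe sets, 109 exceeded a log2 value of 4 on at least 3 arrays and were tested among 8053 in all. Each ± beside a difference is the limma standard error. The array GYY4137 replicate 3 stood apart from the rest. Across the tested probe sets its Pearson correlations with the other arrays were 0.940 to 0.965, against 0.979 to 0.993 among those others. Results are therefore also given without it. In whole animals, fewer cells of a type and less RNA per cell cannot be told apart.

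On the deposited values, the mRNA signals of the ribosomal proteins differed little between exposed and control worms. GCRMA as usually run makes the distribution of values alike on all arrays. Of the tested probe sets with a mean above 10, 105 were members and 201 were not. A shift shared by the whole family could therefore be reduced by that scaling, and this was not tested. None of the 109 probe sets passed a Benjamini-Hochberg adjusted p of 0.05 in limma (0 of 64 for the large subunit, 0 of 45 for the small), where 1.50% of all tested probe sets did (1.09% higher and 0.410% lower in GYY4137). None reached an unadjusted p of 0.05 either, against 17.7% of all tested (9.20% higher and 8.52% lower). The difference of every member lay between -0.14 and 0.24, so the largest was 1.18-fold, and it was under 0.1 in size for 85 of 109 members (78.0%), against 29.4% of all tested probe sets. The 95% interval of the difference stayed within 0.5 either way for 108 of 109 members, where 43.2% of all tested probe sets did so. The widest bounds were 0.52 above control (1.43-fold) and -0.40 below it (1.32-fold lower). A missed threshold does not show that the groups were alike. The median half-width of the members' intervals was 0.24, and for a typical member smaller differences could not be resolved in this fit.

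**Figure D1:**
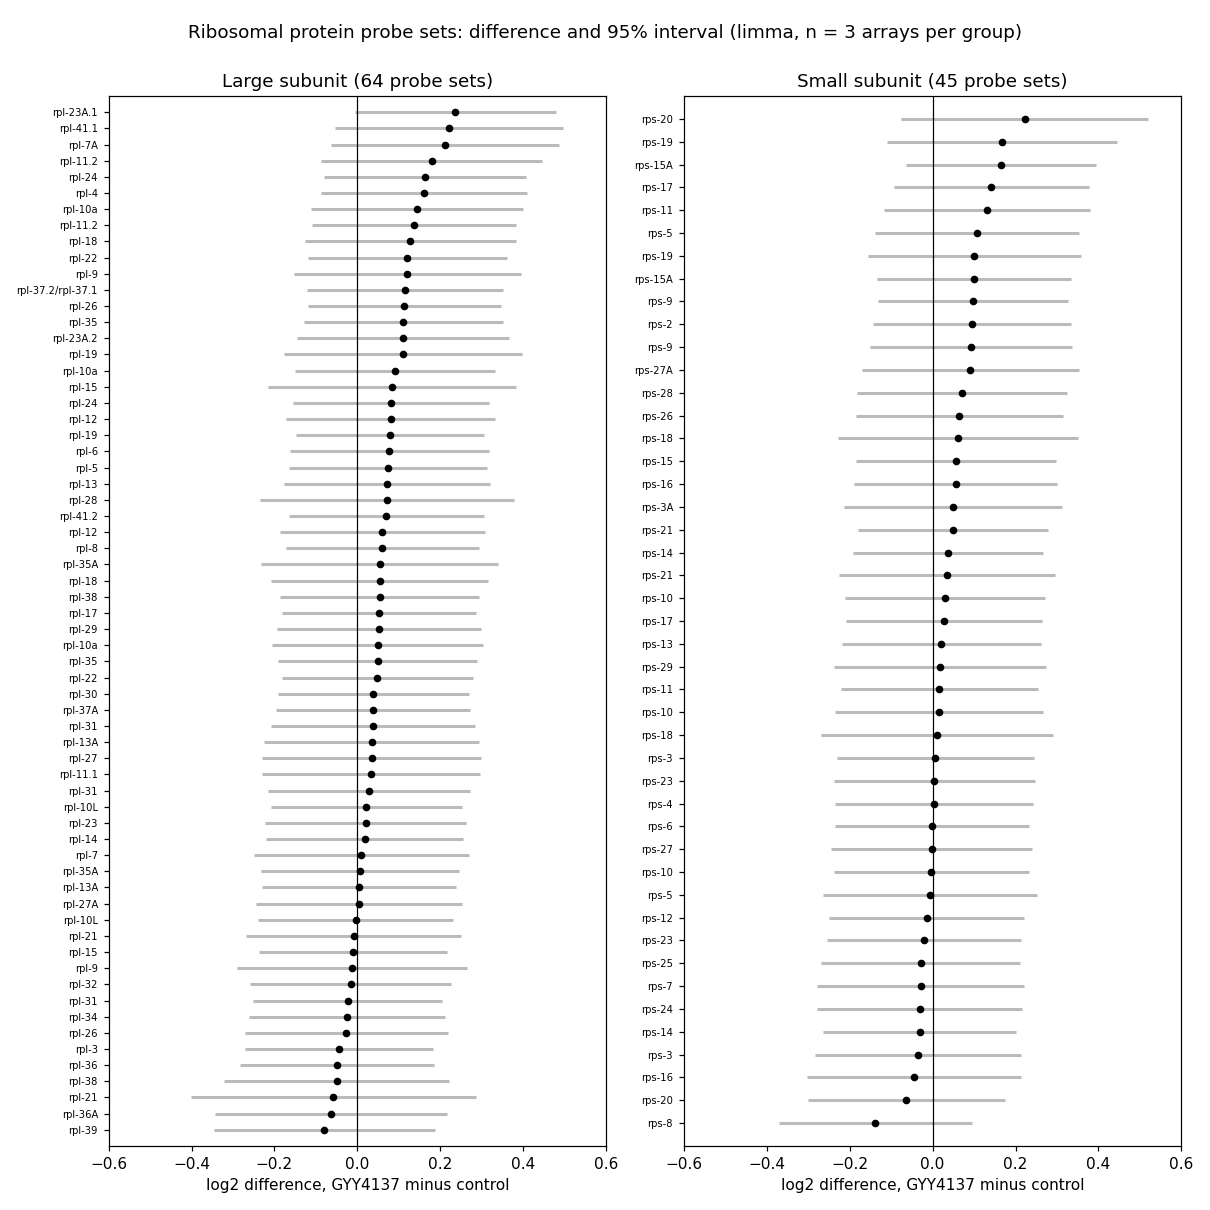
Log2 difference (GYY4137 minus control, x axis) of each tested ribosomal protein probe set, in rows named by gene, large subunit on the left and small subunit on the right. Points are differences and grey lines 95% intervals from limma (3 arrays per group). All points lie between -0.14 and 0.24, and every interval crosses 0.

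On these scaled values, members were steady across arrays as well as between groups. The range over the 6 arrays had a median of 0.20 over members and ran from 0.033 to 0.50, against a median of 0.57 over all tested probe sets. The residual SD within groups had a median of 0.065 for members and 0.183 for all tested. The limma model draws each probe set's variance toward a common prior, whose SD was 0.174, so the standard errors of these steady members (median 0.10) are wider than their own spread gives. With a prior that follows the signal level, 8 of 109 members reached an unadjusted p of 0.05 (7 higher and 1 lower), beside 17.9% of all tested probe sets, and again none passed after adjustment (smallest adjusted p = 0.139, rpl-23A.1). With no filter on low values, 12 of 112 reached an unadjusted p of 0.05, beside 9.89% of all probe sets, and none passed.

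Other probe sets of high signal differed more. Among the 201 other tested probe sets with a mean above 10, 42.3% differed by under 0.1 and the median size of the difference was 0.146, against 0.052 over members. Of these 201, 0 passed the adjusted threshold as higher and 0 as lower, while 16.9% reached an unadjusted limma p of 0.05. Without GYY4137 replicate 3, 5 of them passed. They were not matched to members on signal, with array medians of 10.91 to 11.02 against 11.54 to 11.57 over members. They include major sperm protein probe sets, elongation factor probe sets and the 8 probe sets of ribosomal proteins that carry other names. Members had a mean above 10 in 105 of 109 cases and reached 12.7 at most, while the highest value of any probe set was 13.3.

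**Figure D2:**
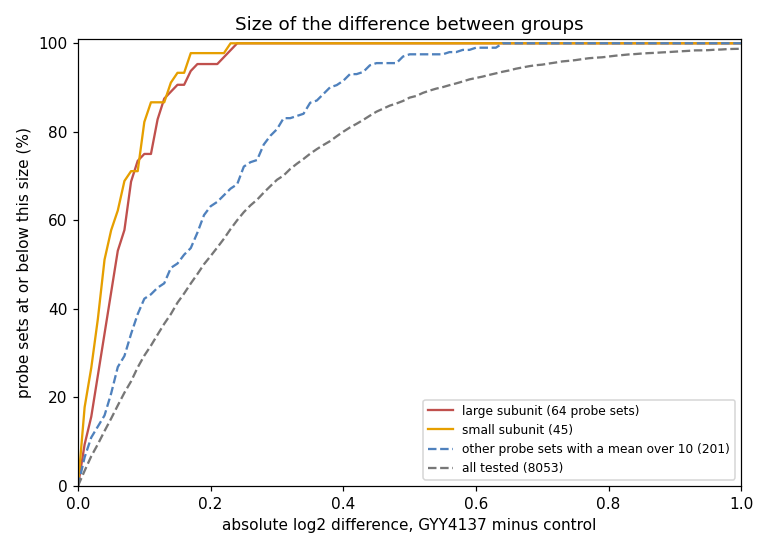
Share of probe sets (y axis, %) whose absolute log2 difference between GYY4137 and control is at or below the value on the x axis. The lines for the large (64 probe sets) and small (45) subunit rise fastest, ahead of the 201 other probe sets with a mean over 10 and of all 8053 tested; 78.0% of members lie under 0.1.

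The number of members with a higher mean in GYY4137 depended on how arrays were scaled. On the deposited values 81 of 109 members (74.3%) had a higher mean in GYY4137 than in control worms, where 42.9% of all tested probe sets did. After quantile normalization 66 of 109 were higher, and after median centring 107 of 109. The sign changed for 21 members under the first and 26 under the second. The median difference over all tested probe sets was -0.044 as deposited, -0.012 after quantile normalization and 0.028 after median centring. The groups did not overlap for 19 members, 17 higher and 2 lower in GYY4137, where 13.4% of all tested probe sets were higher without overlap and 15.6% lower. After quantile normalization 9 members were higher and 4 lower without overlap, where 14.7% of all tested probe sets were higher and 13.2% lower. After median centring 37 were higher and 0 lower, where 16.9% of all tested were higher and 10.9% lower. More members were higher than lower under each scaling, but the excess varied with it and was not tested. No direction is therefore given for the family.

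The large subunit, taken over its 64 tested probe sets, had a median difference of 0.052, against -0.044 over all tested probe sets. Its median level was 11.66, 11.62 and 11.55 on GYY4137 arrays 1, 2 and 3, against 11.57, 11.60 and 11.60 on the control arrays. The lowest GYY4137 array lay under all the controls and the others above them, so the groups overlapped. There were 50 probe sets with a higher mean in GYY4137 and 14 with a lower one.

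The small subunit had a median difference of 0.028 over 45 probe sets, of which 31 had a higher mean in GYY4137 and 14 a lower one. Its median level was 11.50, 11.50 and 11.55 on the GYY4137 arrays and 11.52, 11.45 and 11.47 on the control arrays. Here too the groups overlapped, and the highest array was GYY4137 replicate 3. The difference between the subunits was not tested, since members are not replicates of a condition.

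**Figure D3:**
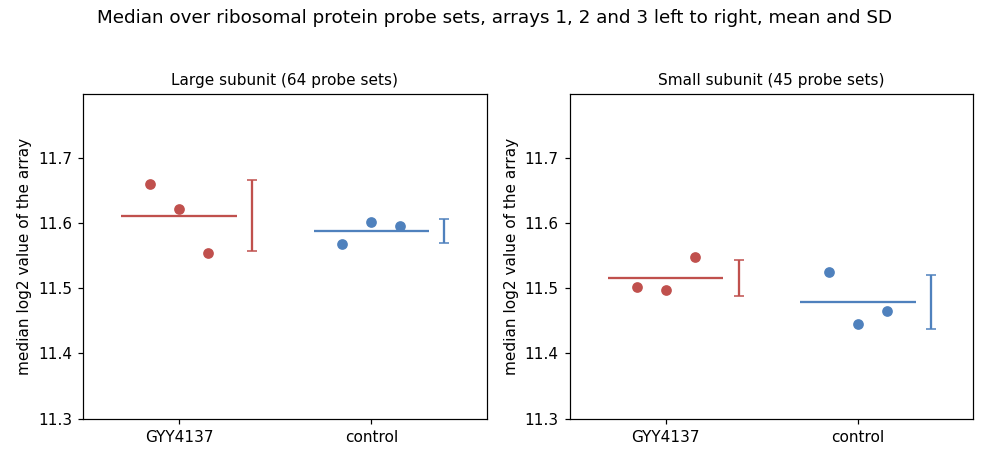
Median log2 value over the tested probe sets of each subunit (y axis, same range in both panels) on each array, GYY4137 left and control right. Points are arrays, lines group means and bars SD (n = 3). The groups overlap in both panels, with GYY4137 arrays at 11.55 to 11.66 for the large subunit and 11.50 to 11.55 for the small one.

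Proteins that line or surround the exit tunnel held the largest difference of all members. Rpl-23A.1 encodes a protein at the tunnel's mouth, where factors that act on the new chain dock. Its values were 10.71, 10.79 and 10.78 in GYY4137 worms, against 10.47, 10.49 and 10.61 in control worms. Every GYY4137 array lay above every control array. The difference was 0.24 ± 0.10 (95% interval -0.0054 to 0.48, limma adjusted p = 0.291), and 0.23 without GYY4137 replicate 3. Rpl-4, whose loop reaches into the tunnel wall, was at 11.32, 11.39 and 11.37 in GYY4137 worms, against 11.28, 11.09 and 11.23 in control worms. Its groups also did not overlap, and it differed by 0.16 ± 0.11 (limma adjusted p = 0.426). Rpl-39, a very small protein of the tunnel, had the lowest difference of the large subunit. It lay between 11.54 and 11.803 in GYY4137 worms and between 11.67 and 11.78 in control worms, which overlap, with a difference of -0.080 ± 0.11. The list of 14 tunnel probe sets (9 genes) had a median difference of 0.066, with 11 above control and 0 passing. On the deposited values, for 5 of these 14 the GYY4137 arrays all lay above the control arrays, where 13.4% of all tested probe sets were higher without overlap. They included probe sets of rpl-19, rpl-26 and rpl-35, genes whose other probe set overlapped between groups.

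The 5S ribonucleoprotein, which rpl-5 and rpl-11 proteins form with 5S rRNA before it joins the large subunit, is read by 4 probe sets. They differed by 0.032 to 0.180, with 0 passing. Rpl-11.2 was read on a pair of probe sets. The first stood at 11.21, 11.26 and 11.44 in GYY4137 worms and 11.15, 11.18 and 11.03 in control worms. The second stood at 10.47, 10.53 and 10.57 in GYY4137 worms and 10.29, 10.42 and 10.45 in control worms. Neither overlapped between groups, and the differences were 0.18 ± 0.11 and 0.14 ± 0.10 (limma adjusted p = 0.411 and 0.481). Without GYY4137 replicate 3 they were 0.11 and 0.12. Rpl-5 differed by 0.073 ± 0.10.

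Proteins near the peptidyl transferase centre and at the stalk base were taken as 1 list. Its median size of the difference was 0.052 over 6 tested probe sets, the same as over all members (0.052). Rpl-3, which reaches toward that centre, was the only large-subunit member whose GYY4137 values all lay below control: 12.28, 12.27 and 12.29, against 12.30, 12.35 and 12.33 in control worms. The gap was -0.044 ± 0.097 (limma adjusted p = 0.817). Rpl-10L, a protein added late in assembly, differed by 0.022 ± 0.098 and -0.0041 ± 0.10 on its probe sets. Rpl-12, at the base of the stalk, differed by 0.081 ± 0.11 and 0.060 ± 0.11, and rpl-8 by 0.060 ± 0.10. Together with the 2 unmeasured probe sets named further on, these make the list of 8 for the centre and the stalk base, with 0 of 6 tested passing.

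Other large-subunit members with the smallest p were rpl-41.1, rpl-7A, rpl-24 and rpl-10a. Rpl-41.1 encodes a minute basic protein at the interface of the subunits. It was at 10.01, 10.11 and 10.29 in GYY4137 worms, against 9.95, 9.96 and 9.83 in control worms, without overlap. Its difference of 0.22 ± 0.12 (limma adjusted p = 0.356) was 0.15 without GYY4137 replicate 3, the highest array. Rpl-7A lay between 11.06 and 11.27 in GYY4137 worms (mean 11.18) and was at 11.09, 10.86 and 10.95 in control worms. Here 1 control array lay among the GYY4137 values, and the difference was 0.21 ± 0.12 (0.16 without GYY4137 replicate 3). Rpl-7, an unrelated protein despite its name, differed by 0.0098 ± 0.11. Rpl-24, which forms a bridge to the small subunit, differed by 0.16 ± 0.10 with no overlap on 1 probe set and by 0.082 ± 0.10 on the other. Rpl-10a differed by 0.049 to 0.144 over 3 probe sets. Rpl-36A had the second lowest difference of the large subunit, -0.063 ± 0.12.

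**Figure D4:**
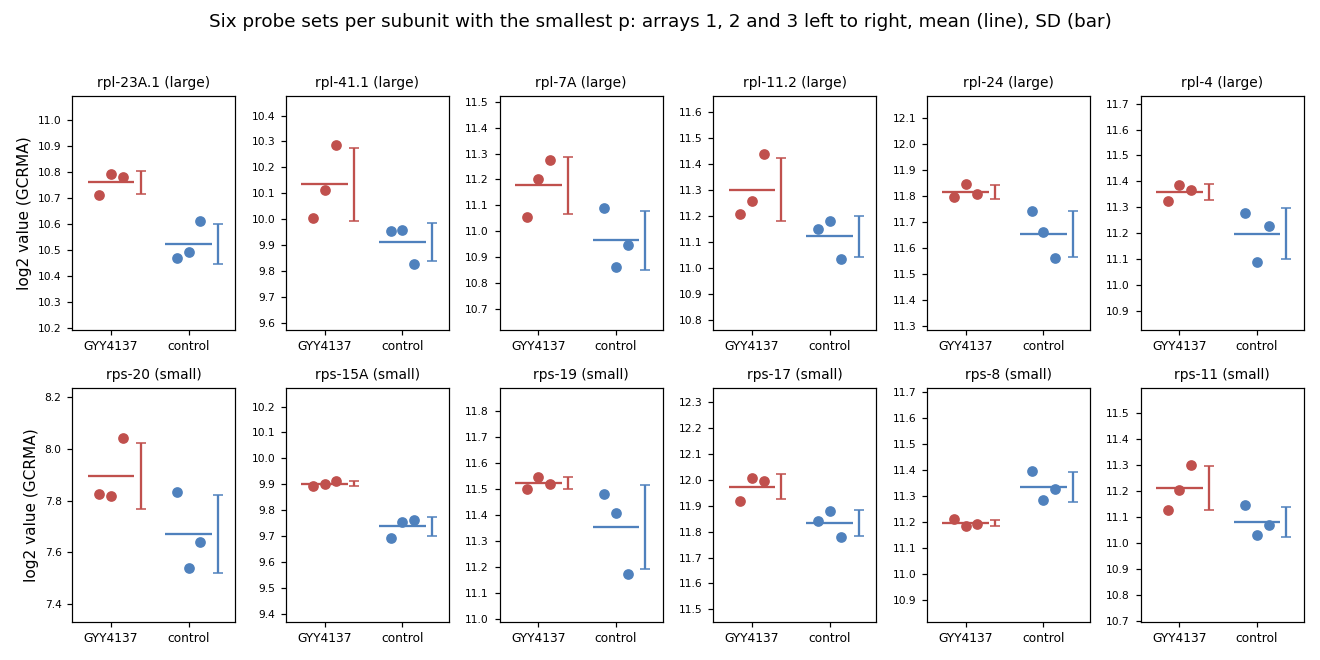
Log2 values (y axis, each panel spanning the same height) of the 6 large-subunit and 6 small-subunit probe sets with the smallest p, GYY4137 left and control right. Points are arrays 1, 2 and 3, lines group means and bars SD (n = 3). The groups overlap for rpl-7A, rps-20 and rps-11. All other panels separate the groups, with GYY4137 lower for rps-8 and higher for the rest, among them rpl-23A.1 and rps-15A.

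The small subunit's head, the part over which the mRNA and tRNAs pass, was represented by 13 genes on 22 probe sets. Their median difference was 0.023, with 15 above control and 0 passing. Outside the head list the median was 0.034 over 23 probe sets, also with 0 passing. Rps-19, a head protein whose loss in humans causes Diamond-Blackfan anaemia, was at 11.50, 11.55 and 11.52 in GYY4137 worms, against 11.48, 11.41 and 11.17 in control worms on its first probe set. The control array at 11.17 stood lowest and the groups did not overlap; the difference was 0.17 ± 0.12 (limma adjusted p = 0.451). On its other probe set rps-19 differed by 0.10 ± 0.11 and the groups overlapped. Rps-17, also in the head, differed by 0.14 ± 0.10 on 1 probe set, without overlap, and by 0.028 ± 0.10 on the other. Rps-5 differed by 0.107 ± 0.11 and -0.0063 ± 0.11 on its probe sets.

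In the body, rps-15A was at 9.89, 9.90 and 9.91 in GYY4137 worms, against 9.70, 9.76 and 9.76 in control worms. All GYY4137 values were higher and the spread within groups was very small (SD 0.010 in GYY4137 and 0.038 in control, n = 3 each). The difference was 0.17 ± 0.098 (limma adjusted p = 0.386), and 0.16 without GYY4137 replicate 3. A further rps-15A probe set also separated the groups, by 0.099 ± 0.10.

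Rps-8 was the only small-subunit member with every GYY4137 array below every control array. It was at 11.21, 11.19 and 11.19 in GYY4137 worms, against 11.40, 11.28 and 11.33 in control worms. The difference of -0.14 ± 0.099 was the lowest of all members (limma adjusted p = 0.457) and was the same to 2 decimals, -0.14, without GYY4137 replicate 3. Rps-6, the protein that S6 kinase phosphorylates downstream of TOR, had 11.36, 11.45 and 11.48 in GYY4137 worms and 11.41, 11.45 and 11.43 in control worms. These overlapped fully, with a difference of -0.0011 ± 0.10. Rps-11 differed by 0.131 ± 0.11 and 0.016 ± 0.10 on its probe sets. Rps-27A, whose yeast and mammalian relatives are made as fusions to ubiquitin, differed by 0.091 ± 0.11.

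Several ribosomal proteins are encoded by paralogs. Rpl-23A.2 was at 11.68, 11.63 and 11.55 in GYY4137 worms, against 11.62, 11.43 and 11.47 in control worms. These overlap, and the difference was 0.11 ± 0.11, beside 0.24 for rpl-23A.1. Rpl-11.1 differed by 0.032 ± 0.11, beside 0.18 and 0.14 for rpl-11.2. Rpl-41.2 differed by 0.070 ± 0.10, beside 0.22 for rpl-41.1. The numbered partner of rpl-24 is annotated here as rsl-24D1, whose mammalian relative takes part in ribosome assembly. It is no member under the rule; it was at 7.90, 7.68 and 7.80 in GYY4137 worms and 7.64, 7.57 and 7.49 in control worms, a difference of 0.22 ± 0.11 (limma adjusted p = 0.336). Rpl-37.1 and rpl-37.2 share 1 probe set, which differed by 0.115 ± 0.10 without overlap. Whether the members of a pair differed from each other was not tested. All the rpl-11, rpl-41, rpl-37 and rpl-23A.1 probe sets end in _s_at or _x_at, so they can bind related transcripts.

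Of the members, 36 are plain _at probe sets, 56 end in _s_at and 20 in _x_at. The median difference was 0.028, 0.034 and 0.066 over the 33, 56 and 20 tested of each kind. For 31 genes 2 or 3 probe sets were tested, and the sign was the same on all probe sets for 18 genes and not for 13. The widest gap was at rps-20, a head protein. Its _x_at probe set had 7.83, 7.82 and 8.04 in GYY4137 worms and 7.83, 7.54 and 7.64 in control worms, a difference of 0.22 ± 0.13, and 0.15 without GYY4137 replicate 3. Its _s_at probe set had 10.31, 10.28 and 10.37 in GYY4137 worms and 10.34, 10.46 and 10.35 in control worms, a difference of -0.063 ± 0.10. Both overlapped between groups. At the other end, the rps-9 probe sets differed by 0.097 and 0.093.

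**Figure D5:**
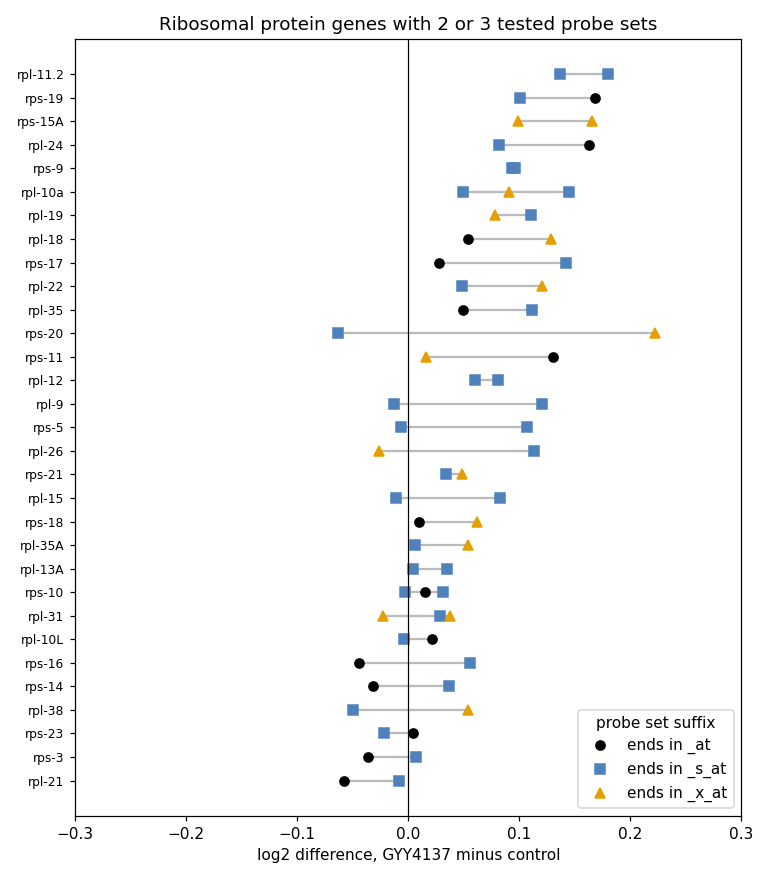
Log2 difference (GYY4137 minus control, x axis) on each tested probe set of the 31 ribosomal protein genes (rows) with 2 or 3 of them; symbols give the ending of the probe set name and grey lines join those of a gene. Rps-20 has the widest gap, 0.22 against -0.063, and 13 genes cross 0.

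Only 3 members gave no value above the floor of 4 on any array. A further rpl-12 probe set stood at 2.91, 2.70 and 2.71 in GYY4137 worms and 2.69, 2.70 and 2.70 in control worms. A second rpl-8 probe set lay between 2.42 and 2.46 on the 6 arrays, and the sole rpl-42 probe set between 2.41 and 2.49. These probe sets were not tested. For rpl-12 and rpl-8 other probe sets measured the gene, while rpl-42 was not measured.

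GYY4137 replicate 3 stood apart less for ribosomal proteins than for other probe sets. Its value differed from the mean of the other GYY4137 arrays by a median of 0.068 in size over members, against 0.283 over all tested probe sets and 0.131 over the other probe sets with a mean above 10. The largest such gap among members was 0.30, at an rpl-19 probe set read at 10.35, 10.45 and 10.70 in GYY4137 worms and 10.42, 10.37 and 10.38 in control worms. That probe set differed by 0.11 ± 0.12 with this array and by 0.011 without it. Without this array the median difference was 0.051 for the large and 0.029 for the small subunit. Again 0 of 109 members passed, where 4.73% of all tested probe sets did, and 0 of 109 reached an unadjusted p of 0.05, against 19.6% of all tested.

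Ribosomal proteins that carry other names were not called either. The stalk proteins rplp-0, rplp-1, rplp-2.1 and rplp-2.2, which recruit elongation factors, the small-subunit protein rpsa-1 and ubq-2, a ubiquitin fusion of a large-subunit protein, are read by 8 probe sets. Their median difference was 0.044, and 0.0062 without GYY4137 replicate 3, with 0 of 8 passing. Rplp-0 had the largest, 0.24 ± 0.13: 11.12, 11.31 and 11.51 in GYY4137 worms, against 11.17, 11.01 and 11.03 in control worms. A control array lay among the GYY4137 values.

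Among elongation factors 0 of 13 tested probe sets passed (median 0.055, and 0.018 without GYY4137 replicate 3). Eef-1B.2, a subunit of the exchange factor that recharges eEF1A, was at 9.52, 9.47 and 9.66 in GYY4137 worms, against 9.39, 9.22 and 9.22 in control worms. It separated the groups, with a difference of 0.27 ± 0.11 (limma adjusted p = 0.276). Among initiation factors 0 of 29 passed (median 0.117, and 0.022 without GYY4137 replicate 3). The lowest p was at eif-2Bepsilon, the catalytic subunit of the exchange factor of eIF2, which differed by -0.41 ± 0.13 from a control mean of 4.74 close to the floor.

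Ribosome assembly genes had 0 of 27 passing and a median of 0.019. Ncl-1, which restrains ribosome production in worms, had the smallest p of that list. It was at 7.42, 7.36 and 7.39 in GYY4137 worms, against 7.59, 7.75 and 7.59 in control worms, without overlap (-0.25 ± 0.10, limma adjusted p = 0.270). RNA polymerase I and III subunits had 0 of 9 passing and a median of -0.141, or -0.063 without GYY4137 replicate 3. Rpc-2 was at 7.05, 6.77 and 6.47 in GYY4137 worms and 7.11, 7.30 and 7.22 in control worms on the probe set with the smaller p. The lowest of these was GYY4137 replicate 3, and the difference was -0.45 ± 0.16 (limma adjusted p = 0.232). The other rpc-2 probe set was at 7.83, 7.63 and 6.77 in GYY4137 worms and 7.75, 7.61 and 7.73 in control worms. There the groups overlapped, only GYY4137 replicate 3 lay below all the controls, and the difference was -0.29 ± 0.26.

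Summed marker levels differed between arrays. The summed level of 24 major sperm protein probe sets was 15.46 to 15.90 (log2) in GYY4137 and 15.27 to 15.43 in control worms, with 23 of 23 tested probe sets above control and the highest value at GYY4137 replicate 3. Germline markers (18 probe sets) summed to 11.95 to 11.99 in GYY4137 and 12.09 to 12.18 in control worms, and muscle markers (9) to 12.76 to 13.06 in GYY4137 and 12.94 to 13.23 in control worms. Of the 9 muscle probe sets 0 had a higher mean in GYY4137, 5 were lower without overlap, and 4 had an unadjusted limma p under the 0.05 threshold. Over all tested probe sets 15.6% were lower without overlap and 8.52% were lower at that p. Moulting genes (12) summed to 8.91 to 9.69 in GYY4137 and 8.63 to 8.65 in control worms. Of the 9 moulting probe sets tested, 9 were above control, 7 were higher without overlap and 7 were higher at that p. Of the 23 sperm probe sets tested, 14 were higher without overlap and 12 at that p. Over all tested probe sets 13.4% were higher without overlap and 9.20% at that p. Intestinal markers (7) gave 12.23 to 12.27 in GYY4137 and 12.11 to 12.25 in control worms, and neuronal markers (10) 9.96 to 10.12 in GYY4137 and 9.85 to 9.96 in control worms. A sum is set mostly by the strongest probe sets. Only 3 of 8 tested neuronal probe sets were above control (median difference -0.048), against 4 of 5 intestinal ones. Of these lists, 2 intestinal and 2 neuronal probe sets lay below the floor on every array, as did 1 each of the germline, sperm, moulting, and yolk and eggshell lists. No marker probe set passed the adjusted threshold over all arrays. Without GYY4137 replicate 3, 3 of 9 muscle, 3 of 9 moulting, 1 of 23 sperm and 1 of 18 yolk and eggshell probe sets passed, where 4.73% of all tested did. The part of these markers in the ribosomal protein values was not tested. Yolk and eggshell genes, which adults express, summed to 15.03 to 15.14 in GYY4137 and 15.09 to 15.18 in control worms, although the label gives L4 larvae. The probe sets of that list went both ways, with 6 of 18 tested above control. Without overlap 3 were higher, all of perm-4, and 6 lower. At an unadjusted limma p under 0.05, there were 2 higher and 5 lower.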

How the data were processed

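The authors deposited 1 log2 value per probe set and array, made with GCRMA per the submitters' processing notes. As usually run, that method models background from each probe's bases, quantile-normalizes the arrays and merges the probes of a set. The log base was read from the values (1.88 to 13.3), and no source used here names a software version or a filter. The 77 Affymetrix control probe sets were left out. A probe set was tested when it exceeded 4 on at least 3 of the 6 arrays (8053). The difference between groups came from limma 3.58.1 (R 4.3.3), by lmFit followed by eBayes without an intensity trend, two-sided, with Benjamini-Hochberg adjustment over all tested probe sets and a threshold of 0.05. The fit was tested on simulated data. The number of arrays limits the precision.

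Symbols come from the platform annotation, and all 77 member genes matched a RefSeq gene table (assembly WBcel235). The members, lists and naming rule were chosen with earlier results of these data known. The naming rule took, per subunit, the 8 smallest p, any calls and the extremes, plus paralogs, members below the floor, members with several probe sets, the extremes of each structural list and up to 3 genes per other list. The lists were written with older symbols: rpl-25.1 and rpl-25.2 are now rpl-23A.1 and rpl-23A.2, rpl-10 is rpl-10L, rla genes are rplp genes and ubl-1 is rps-27A, a member. The naming rule's paralogs also held rpl-7 and rpl-7A, which share only a number. Rplp-2.1 and rpsa-1 were added to their list later. Alternatives were other filters, scalings and priors, array weights, a replicate block, a threshold of 0.10, other probe set choices and each array left out in turn.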

Additional observations from a re-analysis of the deposited data

How the results depend on the processing

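No ribosomal protein probe set was called under any setting run, with 1 exception. With array weights, which gave GYY4137 replicate 3 a weight of 0.143, rpl-23A.1 passed (0.28, limma adjusted p = 0.0358), so 1 large-subunit probe set was called where 17.2% of all tested probe sets were. Over the other settings its adjusted p was 0.139 to 0.554. The call count over all 8053 tested probe sets was less settled: 121 at the reported settings, 33 with no filter, 80 with a floor of 6, 267 at a threshold of 0.10, 1389 with array weights, and 12 to 381 with an array left out. The cause was not tested. Median centring moved the large-subunit median difference to 0.13 and the small-subunit median to 0.10, because it sets the array medians, which were lowest on GYY4137 replicate 3 (5.66), equal. Quantile normalization gave lower medians, 0.031 for the large and 0.0066 for the small subunit. With an array left out the medians ran from 0.041 to 0.062 and from 0.019 to 0.040, and 0 members were called. The replicate number was also tried as a block, which gave 73 calls in all and 0 among members. Same-numbered arrays deviated together with r of 0.108, -0.016 and 0.051, and GYY4137 replicate 2 correlated best with control replicate 1, so the numbers were not read as pairing the samples. Arrays give no depth. With 3 arrays per group and the common prior, differences under about 0.24, the median half-width of the members' intervals, were unresolved. That width depends on the prior. With a prior that follows the signal level, the members' median standard error was 0.062 in place of 0.104, and still no member passed after adjustment.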
